A study of Mus musculus with 8 samples.

Results

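The genes described here are the receptors by which alveolar macrophages bind the constant part of antibodies, and the chain that carries their signal into the cell. They were chosen by name as 8 genes, Fcgr1, Fcgr3, Fcgr4, Fcgr2b, Fcgrt, Fcer1g, Tyrobp and Syk, out of 12367 genes in the table, by family and role. All 8 were measured and tested. Polyadenylated RNA was sequenced from flow-sorted alveolar macrophages, the macrophages of the lung's air spaces, taken from untreated mice aged 3 weeks. The WT group carried floxed Tfam (Tfam-fl/fl), with no Cre named in its genotype. The KO group carried the same floxed alleles and a Cre recombinase driven by CD11c (CD11c-Cre Tfam-fl/fl), which removes Tfam, the packaging and transcription factor of mitochondrial DNA. Both groups thus share the floxed alleles, and without a group carrying Cre alone, effects of the Cre and of Tfam loss cannot be told apart. Each genotype had 4 libraries, and each library pooled cells of 3 to 5 male and/or female mice. Cells enriched on CD11c beads were sorted as CD45+ F4/80+ CD11c+ after incubation with an antibody against CD16/CD32, the proteins of Fcgr3 and Fcgr2b, which was used to block Fc binding.

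Fc gamma receptors bind antibody-coated particles and immune complexes. Activating receptors associate with the small adaptor Fcer1g, whose tail carries an immunoreceptor tyrosine-based activation motif (ITAM). Src family kinases phosphorylate the motif, and the kinase Syk docks on it and starts phagocytosis and cytokine release. Tyrobp is a related ITAM adaptor that serves other receptors of myeloid cells. The inhibitory receptor Fcgr2b carries the opposite motif (ITIM), recruits phosphatases and sets the threshold for the activating receptors. Fcgrt is the neonatal Fc receptor, which works inside endosomes, where it rescues antibody and albumin from breakdown. Alveolar macrophages use these receptors to clear opsonised microbes from the air spaces.

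The deposited values gave 20243772 to 30263201 reads per library in the listed genes. Values below are normalised values, scaled to the size of each library, mean ± SD over the 4 pools of a genotype, unless given library by library. Fold changes are KO against WT on the log2(value + 1) scale, tested with limma over 12163 genes, with a Benjamini-Hochberg adjusted p under 0.05 as the threshold for a call. Tfam was 26.1 to 35.2 in WT and 3.52 to 5.08 in KO (log2 fold change -2.55, limma adjusted p = 1.02e-06). All 12 alveolar macrophage markers listed were measured, of which 3 were higher in KO and 4 lower. Their summed value of 33750 to 36300 in WT and 35365 to 40716 in KO was mostly Chil3 (23528 ± 1334 and 27808 ± 2465). The lower ones were Siglecf (501 ± 37.6 to 194 ± 20.9), Ear2 (2245 ± 178 to 477 ± 111), Krt79 (612 ± 75.4 to 290 ± 40.6) and Cidec (414 ± 42.9 to 200 ± 17.5), and the part of these shifts in the results below was not tested. Of monocyte and interstitial macrophage markers 8 of 10 were measured and 6 were higher in KO, with a summed value of 140 to 338 in WT and 139 to 512 in KO. On average, most of that sum was Cd14 (191 ± 71.4 in WT and 172 ± 97.2 in KO), which was not called. The overlap of the sums therefore does not describe the 6 higher markers. Among these 6, C1qb was 7.06 ± 3.16 in WT and 26.2 ± 15.0 in KO, and Ccr2 was 26.8 ± 4.92 and 55.4 ± 20.2. None of 9 NK and T cell markers and none of 4 eosinophil markers was among the genes analysed here, and 2 of 7 B cell markers summed to at most 5.75 in any library. Neutrophil markers summed to 94.7 to 143 in WT and 112 to 153 in KO, with 1 of 6 tested higher and 3 lower. Dendritic cell markers summed to 102 to 115 and 70.2 to 109, with 1 of 7 higher and 1 lower. Markers of lung epithelium and endothelium summed to 57.5 to 173 and 88.5 to 132, and 0 of 7 were called. The part of such cells in the results below was not tested. Replicate 4 of each genotype stood apart from the other libraries on the second principal component, which held 12.8% of the variance.

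Of the 8 genes, 2 were higher in KO, 3 were lower and 3 were not called. The background over the 12163 genes was 38.7% called, with 18.7% higher in KO and 20.0% lower. The genotypes did not overlap for 5 of the 8 genes and for 37.7% of the 12163. The median of the 8 log2 fold changes was 0.04, against -0.0063 for the whole table, and the called genes lay on both sides. The activating receptor Fcgr1, the inhibitory receptor Fcgr2b and the neonatal receptor Fcgrt fell. The adaptors Fcer1g and Tyrobp rose. Fcgr3, Fcgr4 and Syk did not pass the test. In bulk RNA, fewer cells of a type and less RNA per cell cannot be told apart.

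The promoters of the 3 activating receptors are shown first, because 1 of these genes fell and the other 2 did not pass the test. The RefSeq promoter table (GRCm38.p6) held 7 of the 8 genes, all but Tyrobp. In the 250 bases before each start, both strands were searched for GAGGAA, a core of the type bound by the myeloid factor PU.1, for TTCNNNGAA, the site type of STAT factors, for CACGTG, the E-box of TFE and MYC factors, and for TGANTCA, the AP-1 type. Each stretch below is given 5′ to 3′ on the strand of the gene, leaves out annotated exons and has the matches in capitals, where TTCCTC is GAGGAA on the other strand. They lie at chr3:96293970-96294089 (minus strand, Fcgr1), chr1:171059404-171059523 (minus strand, Fcgr3) and chr1:171018800-171018919 (plus strand, Fcgr4). The Fcgr3 stretch lies inside the gene span given for Fcgr3 below, as the RefSeq starts used are internal to that span.
Fcgr1: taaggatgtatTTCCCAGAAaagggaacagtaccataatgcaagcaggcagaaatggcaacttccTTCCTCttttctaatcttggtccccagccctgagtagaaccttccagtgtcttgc
Fcgr3: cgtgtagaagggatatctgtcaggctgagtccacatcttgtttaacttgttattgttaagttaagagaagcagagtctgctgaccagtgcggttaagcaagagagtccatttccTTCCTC
Fcgr4: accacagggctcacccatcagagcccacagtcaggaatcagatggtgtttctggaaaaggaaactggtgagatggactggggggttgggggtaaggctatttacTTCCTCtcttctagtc

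All 3 stretches hold TTCCTC. It begins 55 bases before the start of Fcgr1, 22 before that of Fcgr4, and 6 or 15 before the 2 listed starts of Fcgr3. Fcgr1 alone of the 7 genes also holds TTCNNNGAA, as TTCCCAGAA, which begins 109 bases before its start. GAGGAA was found for 4 of the 7 genes, the fourth being Syk at 1 of its 2 listed starts, and in 23.3% of 32851 promoter windows of the same length. TTCNNNGAA was in 7.02% of those windows. CACGTG and TGANTCA were found for 0 of the 7 genes and in 6.02% and 6.75% of the windows. The receptor that fell and the other 2 thus share the GAGGAA match, and no binding was measured.

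Fcgr1 (ENSMUSG00000015947) encodes the high-affinity receptor for IgG and lies at chr3:96282909-96293969 in GRCm38. It was 66.3, 64.8, 60.0 and 86.9 in WT replicates 1 to 4 and 30.3, 35.8, 31.9 and 41.9 in KO replicates 1 to 4. Every KO library was below every WT library, and replicate 4 was the highest of each genotype. Means were 69.5 ± 11.9 and 35.0 ± 5.17 (log2 fold change -0.97, SE 0.129, limma adjusted p = 0.000299).

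Fcgr3 encodes a low-affinity activating receptor that depends on Fcer1g for its surface expression (ENSMUSG00000059498, chr1:171051174-171064935). Its WT values were 311, 317, 292 and 477, and its KO values were 337, 334, 302 and 514, in the order of the replicates. The genotypes overlapped, and in both of them replicate 4 was far above the other 3 libraries. The log2 fold change was 0.09 with a 95% interval from -0.34 to 0.51 (limma adjusted p = 0.756). Within each of the 4 replicate numbers the KO library was the higher of the pair. The values of all genes also summed to more in KO (1028525 to 1042689) than in WT (963386 to 977649). Under quantile normalisation the log2 fold change of Fcgr3 was 0.0036.

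Fcgr4, an activating receptor of intermediate affinity, is encoded at chr1:171018920-171029761 (ENSMUSG00000059089). Values of 133, 120, 99.9 and 114 in WT and of 120, 105, 119 and 122 in KO overlapped throughout. The log2 fold change was 0.0017, with a 95% interval from -0.20 to 0.20 (limma adjusted p = 0.990), a range that leaves out a change as large as that of Fcgr1. Unlike Fcgr3, this gene did not have its highest WT value in replicate 4.

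Fcgr2b, the inhibitory receptor (ENSMUSG00000026656, chr1:170958617-170976547), had values of 145, 156, 165 and 239 in WT. In KO they were 99.1, 86.8, 81.9 and 109. No KO library reached the lowest WT library, and replicate 4 was again the highest of each genotype. Means of 176 ± 42.7 and 94.3 ± 12.3 differed by -0.88 on the log2 scale (SE 0.152, limma adjusted p = 0.00146). Transcripts of Fcgr2b and Fcgr3 share sequence, namely 166 stretches of 50 bases, which is 9.58% of those of Fcgr3 and 2.92% of those of Fcgr2b. Reads from these stretches could have been split between the genes in the authors' counting. On either strand, Fcgr2b also shared 107 stretches (1.88%) with Gm38204 and 98 (1.72%) with Cplx2, and 6.95% with any other gene. The other 6 genes shared 0 such stretches with transcripts of any other gene.

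Fcgrt had the largest change of the 8 genes. The neonatal Fc receptor (ENSMUSG00000003420, chr7:45092990-45103851) had WT values of 381, 354, 299 and 393. KO values were 178, 137, 151 and 202, all below the lowest WT value. The means were 357 ± 41.7 and 167 ± 28.9, a ratio of 0.468 (log2 fold change -1.10, SE 0.126, limma adjusted p = 0.000124). Its protein pairs with beta-2 microglobulin, encoded by B2m, which was 1189 ± 56.0 in WT and 1343 ± 23.5 in KO (log2 fold change 0.18, limma adjusted p = 0.0201). The call of B2m ended under quantile normalisation, where the log2 fold change was 0.0070 (limma adjusted p = 0.941). It also ended when WT replicate 1 or WT replicate 3 was left out (limma adjusted p of 0.0526 and 0.0604).

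Fcer1g, the shared signalling chain of the activating receptors (ENSMUSG00000058715, chr1:171229572-171234365), was 360, 370, 354 and 368 in the WT pools. In the KO pools it was 486, 444, 450 and 489. All KO libraries lay above all WT libraries, and the WT libraries varied little. The means of 363 ± 7.55 and 467 ± 23.5 differed by 0.36 on the log2 scale (SE 0.0494, limma adjusted p = 0.000345).

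Tyrobp (ENSMUSG00000030579, chr7:30413760-30417585) moved the same way as Fcer1g and by a similar amount. It was 537, 538, 487 and 503 in WT and 703, 623, 655 and 744 in KO, with no overlap. The means were 516 ± 25.5 and 682 ± 53.3 (log2 fold change 0.40, SE 0.0657, limma adjusted p = 0.00111). Hcst, a further adaptor of myeloid receptors, which recruits phosphoinositide 3-kinase and whose gene faces Tyrobp across 126 bases on the opposite strand, rose from 9.27 ± 2.14 to 16.2 ± 2.13 (0.75 on the log2 scale, limma adjusted p = 0.00280).

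Syk, the kinase that binds the phosphorylated ITAM (ENSMUSG00000021457, chr13:52583173-52648792), was 449, 464, 471 and 550 in WT. It was 477, 540, 492 and 540 in KO, within a range that overlapped with WT. The log2 fold change was 0.09, with a 95% interval from -0.08 to 0.25 (limma adjusted p = 0.395).

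**Figure D1:**
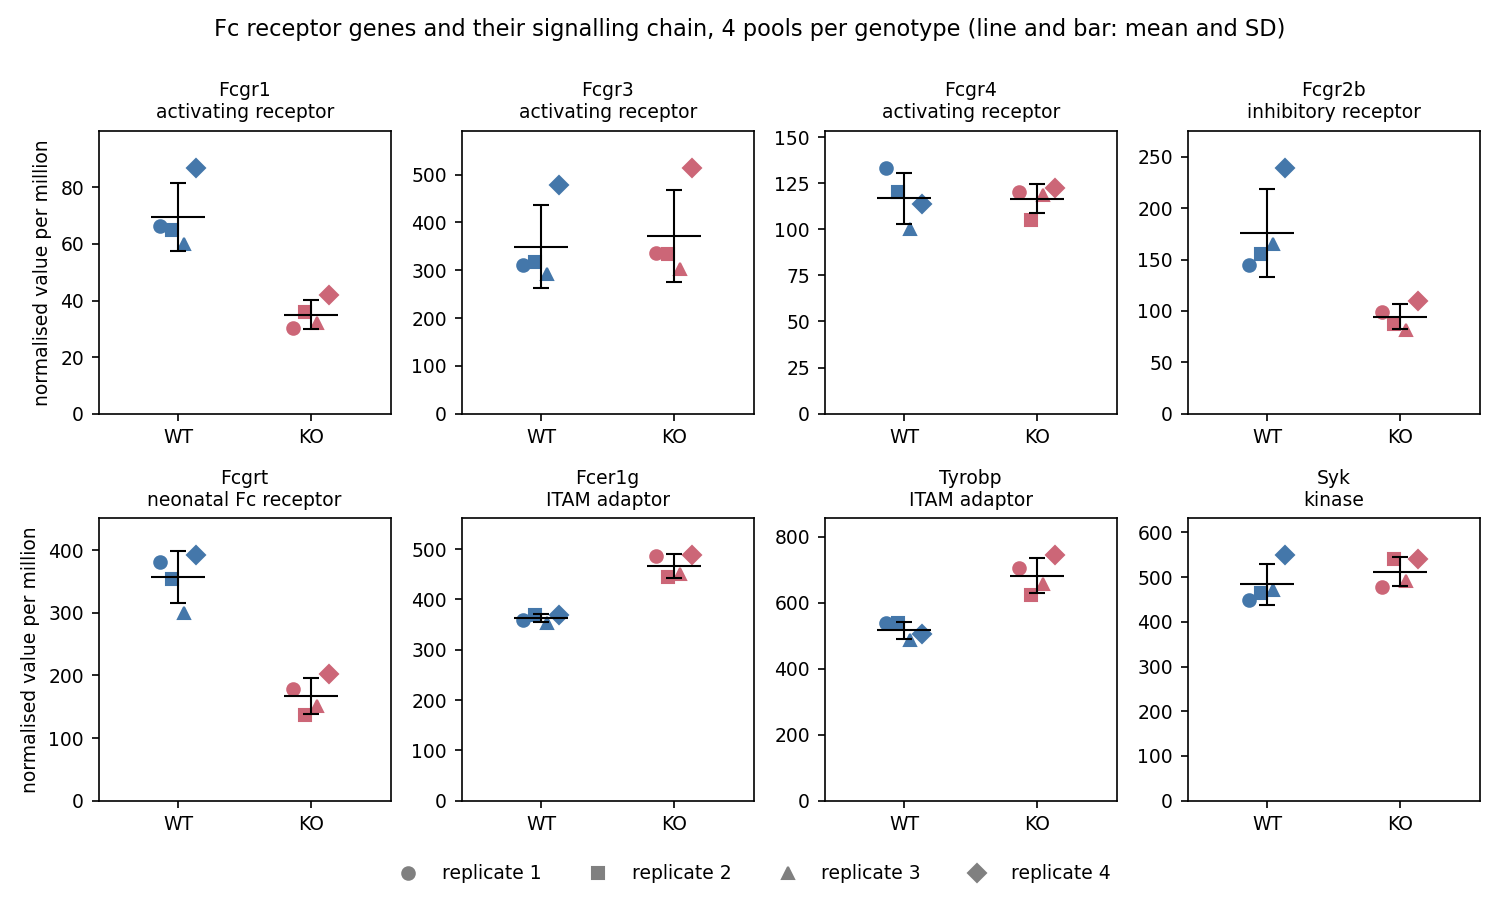
Normalised value (vertical axes from 0) of the 8 genes in each WT and KO library; symbols are replicates, and the line and bar are the mean and SD of 4 pools. Fcgr1, Fcgr2b and Fcgrt are lower and Fcer1g and Tyrobp higher in all 4 KO pools, while Fcgr3, Fcgr4 and Syk overlap, and replicate 4 of Fcgr3 stands high in both genotypes.

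To compare genes with each other, values were divided by the length of the principal transcript in kb. Tyrobp had the highest level per kb in WT, 915 ± 45.3, followed by Fcer1g at 539 ± 11.2. Then came Fcgr3 at 259 ± 63.9 and Fcgrt at 202 ± 23.6, whose ranges overlapped. Fcgr4 at 93.0 ± 11.1 and Syk at 90.1 ± 8.40 also overlapped, and below them were Fcgr2b at 49.7 ± 12.1 and Fcgr1 at 26.9 ± 4.60. The adaptors were thus above every receptor, and Fcgr3 was the highest of the activating receptors in both genotypes.

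In KO the order changed in the middle. Tyrobp (1208 ± 94.6 per kb), Fcer1g (693 ± 34.9) and Fcgr3 (276 ± 71.3) remained in the first 3 places, in that order. Fcgrt, at 94.4 ± 16.4 per kb, now overlapped with Syk at 95.5 ± 6.10 and Fcgr4 at 92.7 ± 6.30. Fcgr2b at 26.6 ± 3.48 and Fcgr1 at 13.5 ± 2.00 stayed the lowest. With the summed length of all exons in place of the principal transcript, the order in WT was the same, and Syk was below Fcgr4 without overlap in both genotypes. By that length Fcgr2b and Fcgr1 overlapped in WT (30.4 ± 7.38 and 26.9 ± 4.60 per kb) and in KO (16.3 ± 2.13 and 13.5 ± 2.00). In KO Fcgrt (79.5 ± 13.8 per kb) then lay above Syk (54.7 ± 3.49) without overlap and still overlapped with Fcgr4.

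The balance of activating against inhibitory receptors was measured as a ratio of values within each library, not corrected for length, so that it serves to compare the genotypes and is no ratio of molecules. The sum of Fcgr1, Fcgr3 and Fcgr4 over Fcgr2b was 3.52, 3.22, 2.74 and 2.83 in WT. It was 4.92, 5.47, 5.53 and 6.21 in KO, above WT in 4 of 4 libraries. The means were 3.08 ± 0.359 and 5.53 ± 0.527, a difference of 0.85 on the log2 scale (two-sided exact permutation test, p = 0.0286, the smallest that 4 against 4 libraries can give, and 0.0381 after adjustment over 4 ratios). That test ignores the replicate numbers. An exact sign-flip permutation test over the 4 replicate pairs, chosen after seeing the data, gave p = 0.125, the smallest that 4 pairs allow.

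Fcgr3 over Fcgr2b went from 1.99 ± 0.156 to 3.91 ± 0.561 and Fcgr4 over Fcgr2b from 0.693 ± 0.193 to 1.25 ± 0.141 (exact permutation p = 0.0286 for each, adjusted p = 0.0381). Without any 1 of the KO replicates the p of Fcgr4 over Fcgr2b was 0.0571 by the exact permutation test, with differences of 0.81 to 0.94 on the log2 scale, although every remaining KO library stayed above every WT library. Fcgr1 over Fcgr2b was 0.400 ± 0.0453 in WT and 0.373 ± 0.0463 in KO (log2 difference -0.10, exact permutation p = 0.457), as both genes fell. Fcgr2b, the denominator, fell, while none of the activating receptors was called higher.

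**Figure D2:**
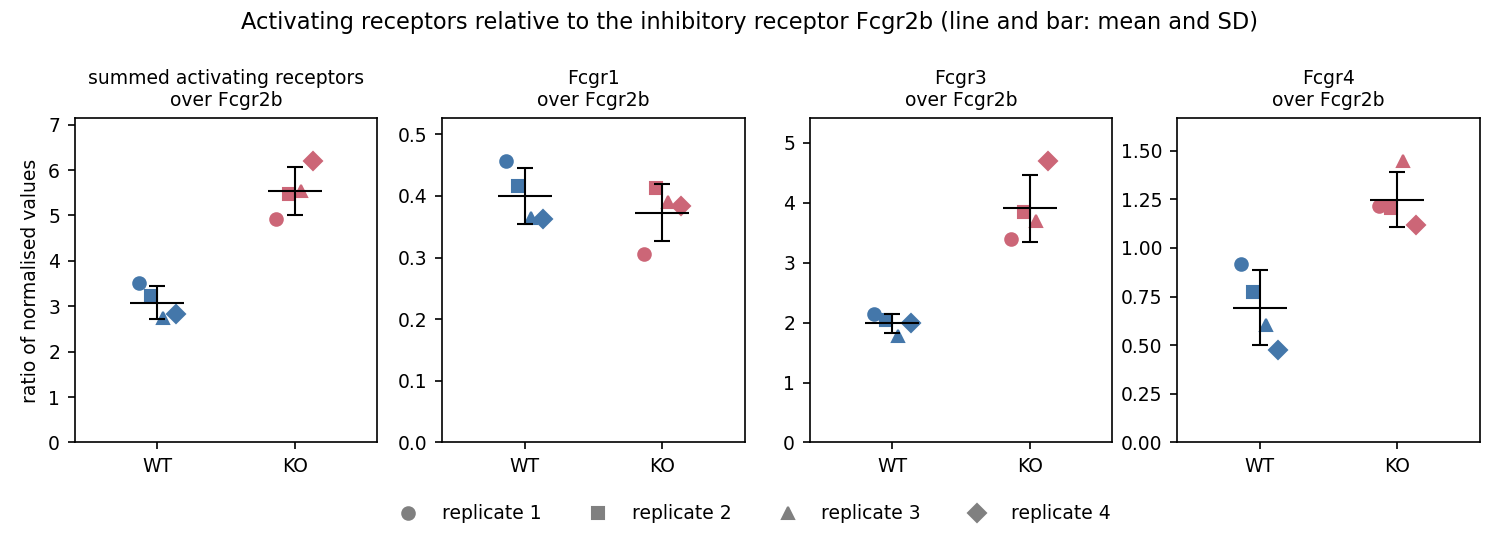
Ratio of the normalised value of the summed activating receptors, and of each activating receptor, to that of Fcgr2b (vertical axes from 0, no unit) in each library; symbols are replicates, and the line and bar are the mean and SD of 4 pools. The sum lies from 2.74 to 3.52 in WT and from 4.92 to 6.21 in KO, while Fcgr1 over Fcgr2b overlaps between the genotypes.

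A pair of ratios was added after the values were seen. Fcgr1 over Fcgr3, the high-affinity against a low-affinity activating receptor, fell from 0.201 ± 0.0134 to 0.0961 ± 0.0124, lower in 4 of 4 KO libraries (log2 difference -1.07, exact permutation p = 0.0286, 0.0429 after adjustment over 6 ratios). The adjustment does not cover the choice of this ratio from the values, so its p adds no support to the fall of Fcgr1. The adaptor Fcer1g over the sum of the activating receptors was 0.692 ± 0.104 in WT and 0.912 ± 0.130 in KO, a log2 difference of 0.40 that did not pass the unpaired test (exact permutation p = 0.0857, adjusted p = 0.103). Within each of the 4 replicate numbers it was higher in KO, by 0.34 to 0.50 on the log2 scale, and replicate 4 was the lowest of each genotype. The exact sign-flip permutation test over pairs gave p = 0.125, the smallest that 4 pairs allow.

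Fcgr2b, Fcgr4, Fcgr3 and Fcer1g lie in this order within 276 kb of chromosome 1, so that genes of the same stretch fell, did not pass the test or rose. Of 18 other protein-coding genes looked at within 100 kb of these 4, 10 were tested, of which 1 rose, 2 fell and 7 were not called. Atf6, a sensor of protein folding stress in the endoplasmic reticulum, rose from 79.8 ± 6.81 to 143 ± 30.8 on the Fcgr2b side. B4galt3, a galactosyltransferase, fell from 23.6 ± 2.33 to 17.9 ± 0.681, and Ppox, an enzyme of haem synthesis, fell from 23.3 ± 0.794 to 16.8 ± 0.799, both beyond Fcer1g. Tomm40l, which lies on the Fcgr3 side of Fcer1g, had a log2 fold change of -0.05 (adjusted p = 0.656 by limma), against 0.36 for Fcer1g. Sdhc, between Fcgr3 and Fcer1g, had 0.03 (adjusted p = 0.641 by limma). Dusp12, Cfap126, Usp21, Ufc1 and Dedd lay between -0.19 and 0.31 and were not called either.

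**Figure D3:**
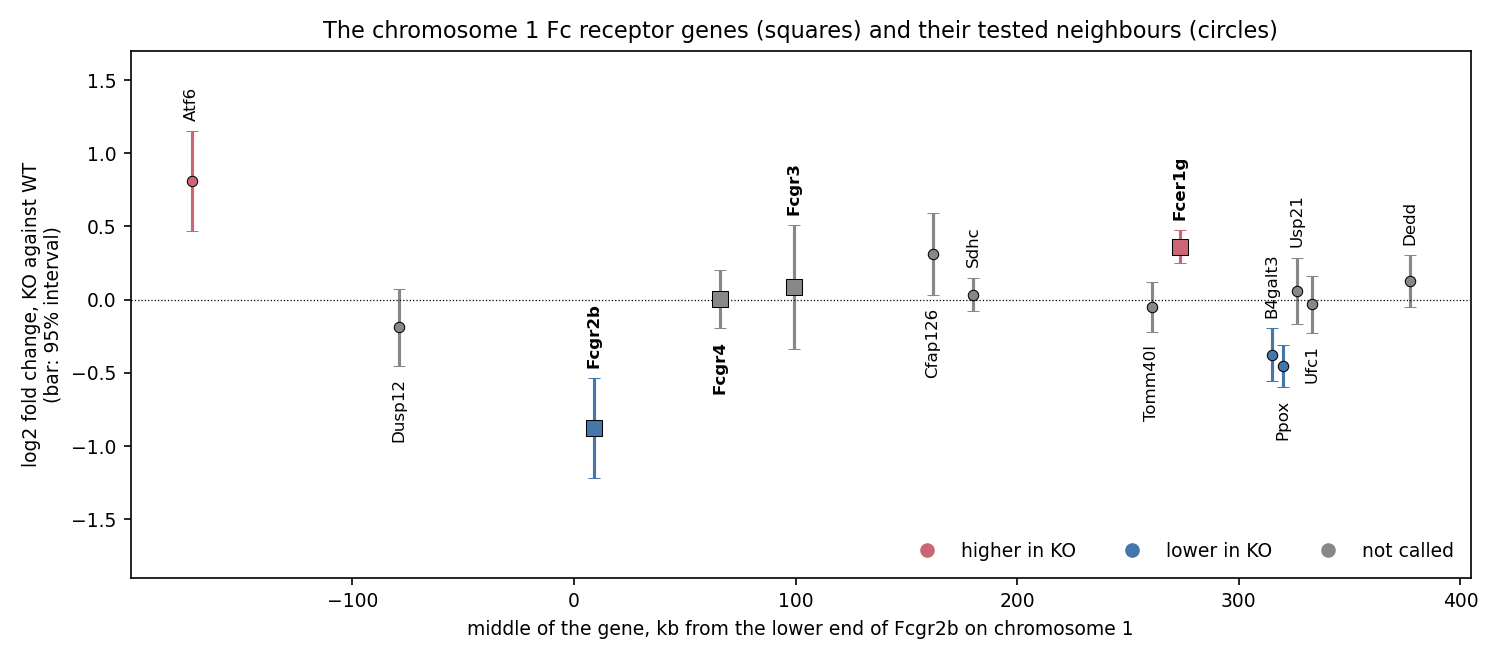
Log2 fold change KO against WT with its 95% interval (vertical axis) against the middle of each gene in kb from the lower end of Fcgr2b (horizontal axis), for the 4 genes of chromosome 1 (squares) and 10 tested neighbours (circles). Fcgr2b is lower, Fcer1g is higher and Fcgr4 and Fcgr3 lie near 0, and 7 of the 10 neighbours were not called.

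Other genes of the pathway were taken from lists of 148 genes, of which 125 were tested. Of these 39 rose, 44 fell and 42 were not called, and the median log2 fold change was 0.0078. The called share was 66.4%, against 38.7% for the whole table, and the calls fell on both sides. The lists were chosen with earlier results of these data known, and the whole table was not matched to them in level. The difference in share was not tested.

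Among receptors that signal through Fcer1g or Tyrobp, or use a related tyrosine motif, 11 of 26 tested genes rose and 8 fell. Without any 1 of the KO libraries, 9 rose and 7 fell. Cd200r2, a relative of the CD200 receptor, rose from 0.760 ± 0.204 to 25.3 ± 4.60 (3.89 on the log2 scale, limma adjusted p = 3.88e-07). Its WT values, at most 0.932, lay under the filter's value of 1. It was thus tested only because of its KO libraries, which its p does not allow for. The lectin Clec4d rose from 12.1 ± 2.92 to 54.5 ± 3.16, and the lipid-binding receptor Trem2, which signals through Tyrobp, from 24.3 ± 3.00 to 66.2 ± 10.9. In the other direction, Pilrb2 fell from 13.7 to 16.6 in the WT pools to 3.42 to 5.90 in the KO pools. Trem1, another partner of Tyrobp, known to amplify inflammatory signals, was 89.6 to 288 in WT and 20.7 to 88.3 in KO (log2 fold change -1.85, limma adjusted p = 0.00804). The partners of the risen adaptors therefore moved both ways, and the median of the 26 was 0.17 on the log2 scale.

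Of 14 other genes listed as receptors or binders of antibody, Fc receptor-like genes included, 3 were tested, and binding was not measured. Fcrls, an Fc receptor-like gene of macrophages, rose from 5.25 ± 1.42 to 22.8 ± 11.3 (1.81 on the log2 scale, limma adjusted p = 0.00262), and the KO pools ranged from 9.19 to 36.8. Lgals3, galectin-3, which binds sugars on IgE among many ligands, rose from 1023 ± 83.6 to 1612 ± 137. Trim21, an antibody receptor of the cytosol, was 18.0 ± 1.39 in WT and 15.7 ± 1.57 in KO (adjusted p = 0.127 by limma). The markers C1qb and Ccr2 were also higher in KO, as given above, and their part in these results was not tested.

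Src family kinases and their regulators stand between receptor and Syk, and 5 of 11 fell and 2 rose, or 1 rose without WT replicate 4 or KO replicate 1, 2 or 3. The kinase Fgr fell from 245 ± 11.3 to 158 ± 10.5 (-0.63 on the log2 scale, limma adjusted p = 4.14e-05). Csk, which inhibits these kinases, fell from 176 ± 9.80 to 115 ± 8.79, and Pag1, the membrane anchor that recruits Csk, from 532 ± 30.0 to 359 ± 21.6. Ptprc, the phosphatase CD45 of the sort gate, which opposes Csk, fell from 1148 ± 70.2 to 859 ± 19.9. Fgr and genes that restrain this family fell side by side. Lyn, another of these kinases, was 474 ± 32.2 in WT and 416 ± 34.5 in KO (log2 fold change -0.19, limma adjusted p = 0.0601). With the replicate number as a block Lyn passed the test (adjusted p = 0.00941 by limma), and also without KO replicate 4 (0.0118), without both replicate-4 libraries (0.00907), with library quality weights (0.0172) and under quantile normalisation (0.00799).

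Below Syk, 14 of 50 genes rose, 18 fell and 18 were not called, with a median of 0.02 and a range of -0.62 to 1.36. Without WT replicate 2, KO replicate 1 or KO replicate 2 the count was 14 higher and 11 lower, without KO replicate 3 it was 15 and 11, and without WT replicate 4 it was 15 and 12. Malt1, a scaffold and protease on the way to NF-kB, rose from 56.4 ± 3.95 to 85.3 ± 3.95 (log2 fold change 0.59), and the kinase subunit Pik3cb from 45.2 ± 3.33 to 76.2 ± 7.82. The adaptor Shc1 fell from 151 ± 6.41 to 115 ± 2.23, Pik3r1, the regulatory subunit of phosphoinositide 3-kinase, from 98.3 ± 5.59 to 71.5 ± 5.10, and the kinase Btk from 140 to 154 in WT pools to 102 to 121 in KO pools. Subunits of the same kinase thus moved in opposite directions.

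The inhibitory side was measured in a pair of lists. Of 14 phosphatases and adaptors listed as inhibitory, a label not tested here for each gene, 6 fell and 1 rose. This count of 7 was 4 without WT replicate 1 or without KO replicate 3. Ptpn6, the phosphatase SHP-1, fell from 320 ± 7.06 to 235 ± 25.9 (-0.45 on the log2 scale, limma adjusted p = 0.00105), the adaptor Dok3 from 91.7 ± 3.39 to 67.0 ± 6.15, and the phosphatase-like Ubash3b from 168 ± 14.1 to 136 ± 12.7. Sh2d1b1, an adaptor of SLAM family receptors, fell from 332 ± 19.9 to 182 ± 1.76. Inpp5d, the lipid phosphatase SHIP that Fcgr2b recruits, was 197 ± 33.3 in WT and 185 ± 24.3 in KO (log2 fold change -0.09, 95% interval -0.36 to 0.19, adjusted p = 0.611 by limma). So the receptor Fcgr2b fell, and no change was called for this effector.

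Of 19 other receptors of inhibitory families 7 were higher and 7 lower, while at an adjusted p under 0.01 by limma 3 were higher and 7 lower. Ceacam1, an adhesion receptor with ITIMs, rose from 12.8 ± 1.71 to 109 ± 15.9 (2.99 on the log2 scale, limma adjusted p = 4.95e-07), and Cd300a, a receptor for lipids of dying cells, from 32.8 ± 4.01 to 112 ± 10.1. Pilra, the ITIM counterpart of Pilrb2, fell from 215 ± 20.0 to 55.8 ± 11.5, and the lectin Clec4a3 from 225 ± 13.7 to 65.2 ± 14.1. Sirpa, the receptor for CD47, was 1912 ± 54.8 and 2008 ± 49.7 (adjusted p = 0.292 by limma). Fcgr2b, at -0.88, lay inside their range of -1.94 to 2.99, and a difference between Fcgr2b and these genes was not tested.

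**Figure D4:**
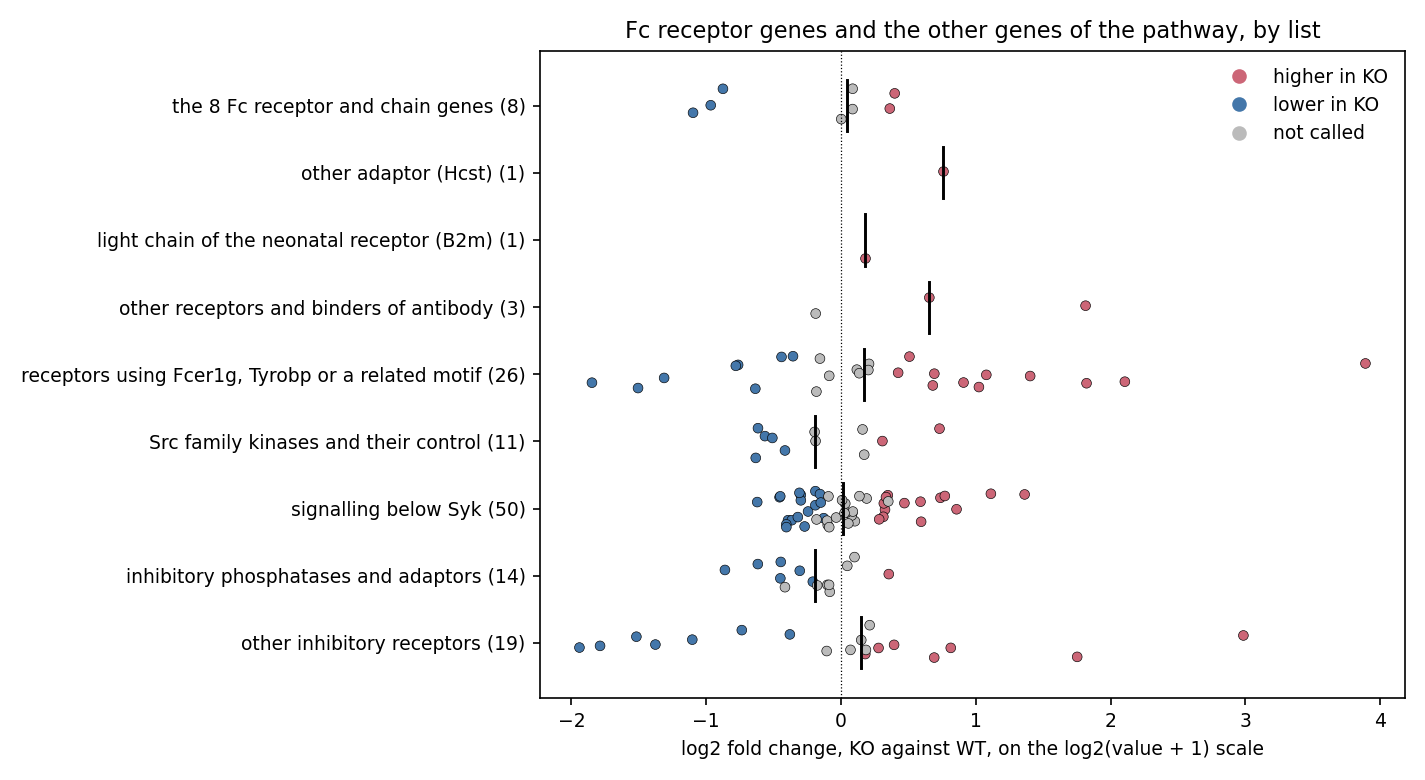
Log2 fold change KO against WT on the log2(value + 1) scale (horizontal axis) of the 8 genes and of the other genes of each list (rows, number tested in brackets); points are genes, coloured by call, and the black line is the list's median. Each list of more than 3 genes holds both higher and lower genes, and its median lies between -0.20 and 0.17.

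The pattern of each gene over the 8 libraries was set beside that of all genes with a level above the median gene, and the 2 with the highest Pearson correlation of log2(value + 1) are given. For genes that differ between genotypes this measure follows the genotype, and all points share their library's scaling. Fcgrt was closest to Man2b1 (r = 0.997) and Fuca1 (r = 0.995), which encode lysosomal enzymes that trim sugar chains. Fcer1g was closest to Npc2, a lysosomal cholesterol carrier (r = 0.994), and to Adipor1 (r = 0.994). Tyrobp was closest to Igbp1 (r = 0.993) and Rplp2 (r = 0.991). Fcgr1 was closest to Shtn1 and Hspa12a (r = 0.997 and 0.996), and Fcgr2b to Smarca2 and Nlrx1 (r = 0.992 and 0.989). Syk was closest to Kcnk6 and Heatr1 (r = 0.989 and 0.974), and Fcgr4 less close to any, with Sat1 and Hpcal1 at r = 0.914 and 0.857.

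The genes closest to Fcgr3 were the heat shock chaperones Dnaja1 (r = 0.984) and Hspa8 (r = 0.981). Hspa8, the constitutive cytosolic Hsp70, reached 4945 in WT replicate 4 and 5028 in KO replicate 4, against at most 1793 in the other WT pools and 2029 in the other KO pools. Replicate 4 held the highest value of 5 of the 8 genes in WT and of 7 of 8 in KO, and the part of these pools' chaperone levels in the receptor values was not tested. Without both replicate-4 libraries the log2 fold changes were -0.94 for Fcgr1, -0.79 for Fcgr2b, -1.15 for Fcgrt, 0.35 for Fcer1g and 0.34 for Tyrobp, with limma adjusted p from 5.06e-05 to 0.00349. Those of Fcgr3 (0.08), Fcgr4 (-0.03) and Syk (0.12) were not called either way.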

How the data were processed

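The authors deposited 1 table of normalised signal values per gene and library, made relative to a scaled library size. Per the submitters' processing notes the build was GRCm38 and the tools included RSEM 1.3.1, limma, cutadapt 1.7.1 and CASAVA 1.8.2. The library kit keeps strand per the labels' protocols. Whether counting used strand, and with which aligner and annotation, is not given in the sources used here. Every value is a whole read number plus 0.5 times the column's step (100% of values at a tolerance of 0.01), which gave reads per library. Libraries differed in depth by less than 1.5-fold, and 3 reads are worth a value of 0.1 to 0.152.

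Values were tested as log2(value + 1) with limma 3.58.1 in R 4.3.3 (moderated variances with a trend, two-sided) for the 12163 genes that reached a value of 1 in 4 or more libraries, after a check on simulated data. Ratios were tested by exact permutation of 4 against 4 libraries. Positions and lengths come from GENCODE M21 (GRCm38) and promoters from RefSeq (GRCm38.p6). The labels do not say what a replicate number marks, nor that pools came from separate litters or days, so p-values measure the spread between these pools. Same-numbered libraries deviated together (correlations 0.363, 0.286, 0.394 and 0.431, against -0.374 to 0.0917 for other pairs). The main tests did not use this pairing, and a replicate block and sign-flip tests over pairs were run as alternatives.

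The 8 genes and the lists were chosen with earlier results of these data known. Named by rule were the 8 genes, up to 4 genes per list by lowest p, the chromosome 1 neighbours within 100 kb and the 2 genes most like each; a few are not reported here. Lyn, Inpp5d, Btk, Trem1, Ptprc, Sirpa, C1qb and Ccr2 were named after their values were seen, as were all other cell type markers given singly. Alternatives were other pseudocounts, filters, scalings, weights and thresholds, the block and leaving out libraries.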

Additional observations from a re-analysis of the deposited data

Results flagged for a closer look

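In groups of 4 libraries, a highest or lowest value far from the other 3 was found in 10 of 140 groups, and chance flags about 1 in 20. Of the receptor genes only Fcgr3 was concerned, with 477 in WT replicate 4 (next highest 317) and 514 in KO replicate 4 (next highest 337). The 2 genes most like it showed the same libraries, but they were picked for following Fcgr3 over these libraries, so this adds no support. Flags of genes picked for likeness, Kcnk6 among them, are likewise not independent of those of the receptor and chain genes. Hspa8 reached 4945 in WT replicate 4 and 5028 in KO replicate 4, and Dnaja1 reached 238 and 233 there, against at most 95.2 in the other WT pools and 108 in the other KO pools. Replicate 4 also held the highest WT value of Kcnk6 (90.6), the highest KO value of Pag1 (392) and the lowest KO value of Pik3cb (64.5). The remaining value was that of Trem2 in KO replicate 1, 82.4, against 58.3 to 62.1 in the other KO pools.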

How the results depend on the processing

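All 8 receptor and chain genes stayed on their side of the threshold under all 20 alternatives, with 5 of 8 called each time, among them quantile normalisation, median centring, voom weights and the replicate block. The log2 fold change ranged from -1.06 to -0.86 for Fcgr1, -0.96 to -0.72 for Fcgr2b, -1.19 to -1.01 for Fcgrt, 0.27 to 0.39 for Fcer1g and 0.31 to 0.44 for Tyrobp. Fcgr3, Fcgr4 and Syk, never called, ranged over 0, from -0.08 to 0.25, -0.07 to 0.07 and -0.02 to 0.15. The activating to inhibitory difference of 0.85 was 0.58 when log2 values were averaged in place of summing, which gives Fcgr1 more weight, and 0.89 per kb (chosen after seeing the data). It ranged from 0.79 to 0.91 when 1 library was left out, each with an exact permutation p of 0.0286, and was 0.75 without both replicate-4 libraries, where the smallest p possible is 0.1. An exact sign-flip permutation test over the 4 replicate pairs, chosen after seeing the data, gave the smallest p possible, 0.125, for each ratio but Fcgr1 over Fcgr2b (0.875). With the replicate number as a block 91 of 125 pathway genes were called in place of 83, and of the pathway genes named here Lyn alone changed its call. The calls over all 12163 genes also rose with the block, to 2730 higher and 2952 lower from 2279 and 2429. The count of pathway genes was 68 to 80 with 1 library left out, where the whole table had 1850 to 2252 higher and 1947 to 2447 lower. It was 56 at a limma adjusted p under 0.01. At that threshold 18 in place of 32 genes below Syk and 3 in place of 7 inhibitory phosphatases and adaptors were called, and B2m and Ubash3b were not. No variance trend added Cfap126 (limma adjusted p = 0.0264) and library quality weights added Trim21 (0.0350). The planned edgeR and DESeq2 fits were not run: the deposited values carry an added 0.5 read and are not counts as deposited, and a fit with voom weights on the reads recovered from them was run in their place. Depth did not limit these genes, which lie far above the value of 3 reads.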
